A study of Mus musculus with 12 samples.

Results

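Mural cells, the contractile smooth muscle cells of arteries and arterioles and the pericytes of capillaries, were followed through 10 of their genes: Tagln, Acta2, Myh11, Myl9, Mylk, Cnn1, Des, Pdgfrb, Rgs5 and Notch3. The genes were picked by name from a count table of 14881 genes, in which 8 of the 10 had a row. Cnn1 and Des had none and were not analysed here. Reads were counted in 12 libraries of brain RNA from male mice aged 22 to 26 months, with 23213612 to 29295266 reads per library. The mice were APPswe, a strain with a transgene of human mutant amyloid precursor protein. Each library is called a mouse here, by its sample number. Whether each holds RNA of 1 separate mouse is not known. Every mouse carried the transgene, had 5 µL of AAV1 (an adeno-associated viral vector with the broadly active CMV promoter) injected into the cisterna magna, and was given weekly intraperitoneal antibody at 40 mg/kg. No group lacked a virus or an antibody.

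The 4 groups of 3 mice were mVEGF-C+mAdu (mice 10 to 12), which received mouse vascular endothelial growth factor C and mAducanumab, an antibody to aggregated amyloid beta; mVEGF-C+mIgG (mice 7 to 9), with the growth factor and control immunoglobulin; eGFP+mAdu (mice 4 to 6), with the fluorescent control vector and the antibody; and eGFP+mIgG (mice 1 to 3), with both controls. The series description names the hippocampus, whereas the source label names brain meninges. Summed over 10 hippocampal neuron markers, libraries held 1424 to 1599 CPM (read counts scaled by library size with TMM, which adjusts for library composition), against 211 to 331 CPM over 18 markers of meningeal and perivascular fibroblasts. Of the mural genes, Rgs5 and Pdgfrb had at least 404 reads in every library, whereas Tagln had 25 to 78, which gives a counting error of 11.3% to 20.0% per library.

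Smooth muscle contracts when myosin light chain kinase (Mylk) phosphorylates the regulatory light chain (Myl9), so that smooth muscle myosin (Myh11) pulls on alpha smooth muscle actin (Acta2). Transgelin (Tagln) and calponin (Cnn1) bind these actin filaments, and desmin (Des) forms the intermediate filaments beside them. Pdgfrb is the receptor through which endothelial platelet-derived growth factor B recruits mural cells, Rgs5 dampens signalling of G protein-coupled receptors, and Notch3 is the Notch receptor of arterial smooth muscle and pericytes. In the brain these cells set vessel tone and help to maintain the blood-brain barrier, and amyloid beta can be deposited in the walls of the arteries that they build.

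The contractile genes share a known element, the CArG box, to which serum response factor binds (CC, a run of 6 A or T bases, then GG). Windows of 300 bases around a RefSeq start, on GRCm38.p6, were at hand for 7 of the 10 genes. These were Acta2, Myl9, Mylk, Cnn1, Des, Rgs5 and Notch3, and Tagln, Myh11 and Pdgfrb were not matched. The Mylk window, at chr16:34784700-34784999, lies inside the gene, which starts at 34745210 in the GENCODE annotation. The windows of Acta2 and Myl9 are shown because they were the 2 of the 7 that held such a box when 1 base other than A or T was allowed in the run. The Acta2 window lies at chr19:34255324-34255623 on the minus strand and the Myl9 window at chr2:156775214-156775513 on the plus strand. Capitals mark the boxes.
Acta2: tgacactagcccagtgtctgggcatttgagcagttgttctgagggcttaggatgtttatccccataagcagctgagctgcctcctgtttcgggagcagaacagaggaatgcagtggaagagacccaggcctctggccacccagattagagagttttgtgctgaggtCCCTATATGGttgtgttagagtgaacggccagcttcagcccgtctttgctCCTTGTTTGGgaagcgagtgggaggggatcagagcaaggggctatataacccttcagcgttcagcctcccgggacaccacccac
Myl9: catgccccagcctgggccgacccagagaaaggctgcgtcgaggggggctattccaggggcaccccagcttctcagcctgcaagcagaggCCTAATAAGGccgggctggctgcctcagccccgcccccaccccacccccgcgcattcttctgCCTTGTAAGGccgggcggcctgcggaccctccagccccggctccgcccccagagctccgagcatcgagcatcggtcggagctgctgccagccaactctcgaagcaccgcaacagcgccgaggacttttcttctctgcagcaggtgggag
Myl9 held 1 exact box, CCTAATAAGG, which began 161 bases before the annotated start, and 1 box with a single other base, 99 bases before it. Acta2 held 2 boxes, each with a single other base, 84 and 34 bases before the RefSeq start. The GENCODE annotation places the 5' end of Acta2 farther upstream, at 34255590. By that annotation both boxes lie inside the gene. Over all 32851 windows of this length, 1.63% held an exact box, 9.98% held an exact box or one with a single other base, and 0.822% held at least 2 of these. The element reads the same on both strands, and its letters are a match to a pattern, not a measured binding site.

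Divided by exon length, Rgs5 had the highest level of the 8 genes, at 12.1 ± 1.54 CPM per kb (SD over the 12 libraries). Myl9 followed at 4.37 ± 0.811 and Pdgfrb at 3.50 ± 0.249 CPM per kb, with overlapping ranges. Acta2 lay at 1.95 ± 0.550, Mylk at 1.47 ± 0.107, Tagln at 0.853 ± 0.278, Notch3 at 0.460 ± 0.0515 and Myh11 at 0.353 ± 0.0642 CPM per kb. The ranges of Acta2 and Mylk overlapped, as did those of Mylk and Tagln and of Notch3 with both Tagln and Myh11. Within a library, Rgs5 lay above Myl9, Pdgfrb above Acta2, Mylk above Tagln and Tagln above Notch3 in all 12 libraries. Myl9 lay above Pdgfrb in 10, Acta2 above Mylk in 9 and Notch3 above Myh11 in 10 of the 12. From the lowest to the highest library, Tagln differed 2.71-fold and Acta2 2.32-fold, against 1.31-fold for Pdgfrb and 1.28-fold for Mylk.

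Libraries 3, 6, 9 and 12 stood apart from the other 8. Among genes that varied within a group beyond counting noise, they held the middle value of their group in 82.5%, 81.9%, 79.2% and 85.9% of cases, against 5.69% to 12.8% for the other libraries. Among the 8 mural genes, the middle value was held by mouse 3 for 6, mouse 6 for 4, mouse 9 for 2 and mouse 12 for 3. Whether these libraries share material with others of their group was not tested, and the p-values below treat all 12 as separate mice. Each comparison is therefore also given for the 8 libraries without them, in which every group holds 2 mice.

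The combined comparison set both treatments (mVEGF-C+mAdu) over both controls (eGFP+mIgG). In it 6 of the 8 mural genes had a negative change, and Tagln was the 1 that passed an adjusted p under 0.05. In mVEGF-C+mAdu Tagln had 1.19, 1.17 and 1.01 CPM in mice 10, 11 and 12, against 2.72, 1.67 and 2.68 CPM in mice 1, 2 and 3 of eGFP+mIgG. The 3 treated mice were the lowest of all 12, and mouse 2 was well below the other two controls. In this comparison 13.4% of all genes were likewise lower in every treated mouse than in every control. The share of genes with these 3 mice lowest of all 12 was not computed. The means were 1.12 ± 0.102 CPM in mVEGF-C+mAdu and 2.36 ± 0.595 CPM in eGFP+mIgG (SD, n = 3 each), a log2 fold change of -1.09 (SE 0.217), or 53.0% lower. Tagln passed the quasi-likelihood test of edgeR after the p-values of all genes were adjusted (adjusted p = 0.0238), in a comparison in which 324 of 14881 genes (2.18%) passed and 0.988% passed as lower. Tagln (ENSMUSG00000032085) lies on chromosome 9 from 45929619 to 45936058 of mm10, on the minus strand.

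The Tagln call did not hold in every setting. Without mouse 1, 3, 10 or 12 the adjusted p by edgeR was 0.122, 0.0912, 0.0789 and 0.119, and leaving out any other single library gave 0.00840 to 0.0448. In the 8 libraries without mice 3, 6, 9 and 12 the log2 change was -0.91 and the adjusted p was 0.560 by the same test. Of 1988 exon bases of Tagln, 108 are shared with Pcsk7 on the opposite strand, and whether counting used the strand is not given in the sources used here. Pcsk7, a protease gene, had 17.9 to 21.6 CPM over all libraries and a log2 change of -0.09 (SE 0.0558) in the same comparison.

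**Figure D1:**
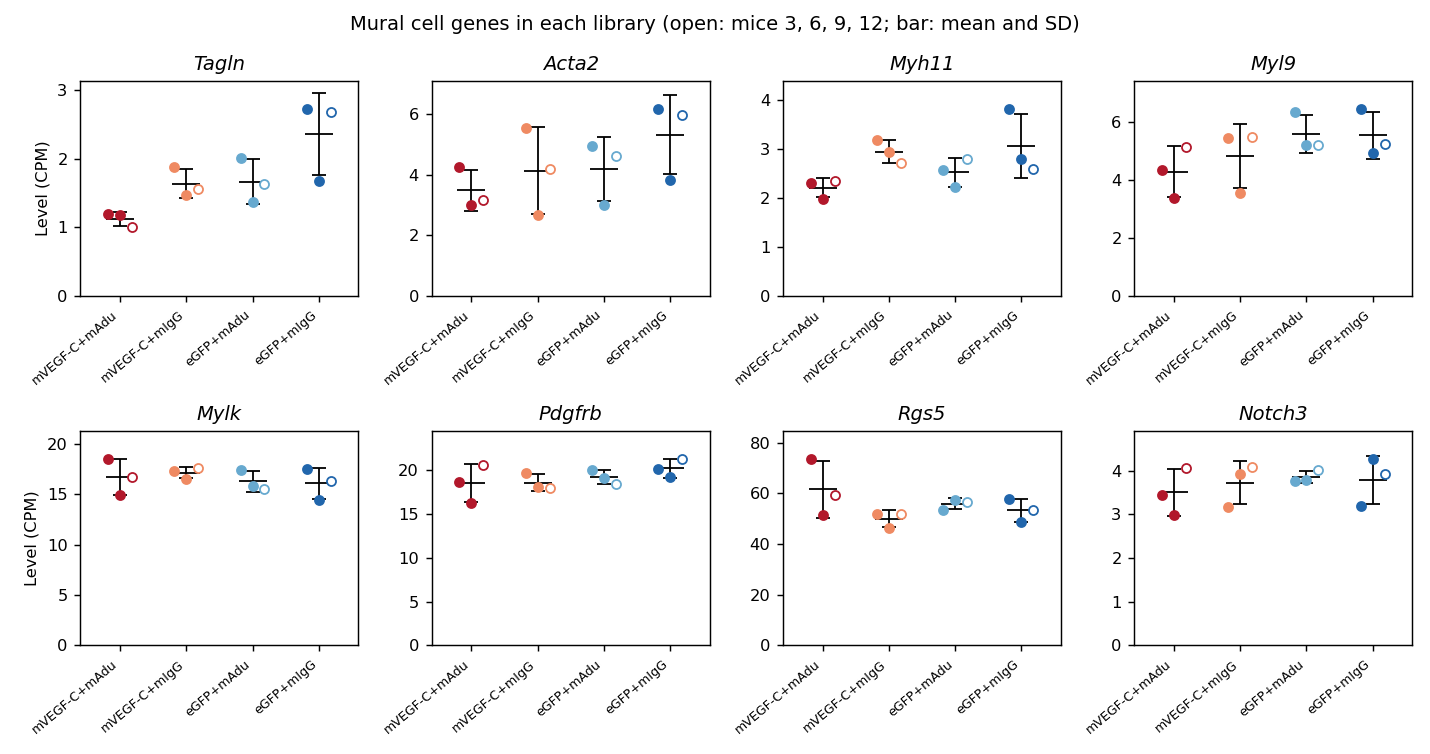
Level in CPM of the 8 measured mural cell genes in each of the 12 libraries, with groups on the x axis, points for single mice, and bars for the group mean and SD (n = 3). Tagln lies at 1.01 to 1.19 CPM in mVEGF-C+mAdu, below every other library, whereas Pdgfrb and Mylk spread little; open points are mice 3, 6, 9 and 12.

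The other filament genes had negative changes in the combined comparison and did not pass by edgeR. Acta2 had 4.26, 2.99 and 3.18 CPM in mice 10 to 12 of mVEGF-C+mAdu, against 6.17, 3.81 and 5.99 CPM in mice 1 to 3 of eGFP+mIgG. The groups overlapped, because mouse 10 lay above mouse 2. The log2 change was -0.63 (SE 0.249), with an adjusted p of 0.171 by edgeR. Acta2 passed as lower by limma-voom with quality weights (log2 -0.78, adjusted p = 0.00725) and did not pass by DESeq2. Acta2 (chromosome 19, 34241090 to 34255590) belongs to a family of near-identical actins, so reads shared with them make its counts uncertain. Acta1, Actb and Actg1, which encode skeletal and cytoplasmic actins, had log2 changes of -0.11, -0.07 and -0.05 in this comparison.

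Myh11, the myosin heavy chain of smooth muscle, had 2.30, 1.98 and 2.33 CPM in mVEGF-C+mAdu, against 3.81, 2.79 and 2.58 CPM in eGFP+mIgG. These groups did not overlap, as was the case as lower for 13.4% of all genes. Its log2 change was -0.47 (SE 0.168), with an adjusted p of 0.129 by edgeR. Myh11 lies on chromosome 16 from 14194535 to 14291372 and Myl9 on chromosome 2 from 156775420 to 156781658. Myl9 had 4.34, 3.40 and 5.15 CPM in mVEGF-C+mAdu, against 6.46, 4.93 and 5.27 CPM in eGFP+mIgG, and mouse 12 lay within the range of the controls. Its log2 change was -0.38 (SE 0.179), with an adjusted p of 0.252 by the same test. Its paralogs Myl12a and Myl12b, whose reads could be shared with it, had changes of -0.08 and -0.03.

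Mylk, the kinase (chromosome 16, 34745210 to 35002420), had a change near 0. It had 18.6, 14.9 and 16.8 CPM in mVEGF-C+mAdu, against 17.5, 14.5 and 16.4 CPM in eGFP+mIgG, and the groups overlapped over almost their whole range. Its log2 change was 0.05 (SE 0.0859), with an adjusted p of 0.786 by edgeR; without mouse 10 the change was -0.03.

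None of the receptor and signalling genes passed in the combined comparison. Pdgfrb lies on chromosome 18 from 61045150 to 61085061 and Notch3 on chromosome 17 from 32120820 to 32166852, where 488 of its 8089 exon bases are shared with Gm17276. Pdgfrb had 18.7, 16.3 and 20.6 CPM in mVEGF-C+mAdu, against 20.2, 19.2 and 21.3 CPM in eGFP+mIgG. Mice 10 and 11 were below all controls and mouse 12 lay among them. Notch3 had 3.46, 2.99 and 4.07 CPM in mVEGF-C+mAdu, against 3.20, 4.28 and 3.92 CPM in eGFP+mIgG, with overlapping groups. Their log2 changes were -0.13 (SE 0.0782) for Pdgfrb and -0.11 (SE 0.148) for Notch3, with an adjusted p of 0.377 and 0.728 by edgeR.

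Rgs5 (chromosome 1, 169655501 to 169695813), the most abundant member per length, had a positive change. It had 73.6, 51.5 and 59.4 CPM in mVEGF-C+mAdu, against 57.8, 48.7 and 53.5 CPM in eGFP+mIgG. Mouse 10 was the highest of all 12 libraries and mouse 11 lay within the control range. The log2 change was 0.20 (SE 0.0972), with an adjusted p of 0.252 by edgeR.

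Over the 8 genes, 6 changes were negative in the combined comparison, where 51.1% of all genes were negative, and the median log2 change was -0.25 against -0.0036 over all genes. At an unadjusted p under 0.05 there were 3 (Tagln, Acta2 and Myh11), where 20.4% of all genes were. The 5 contractile genes had a median of -0.47 and the 3 receptor and signalling genes one of -0.11. In bulk tissue, fewer mural cells and less RNA of a gene per mural cell cannot be told apart. In the 8 libraries without mice 3, 6, 9 and 12, no member passed by edgeR, 3 had an unadjusted p under 0.05 (Tagln, Myh11 and Myl9), and all 8 kept their direction.

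A ratio of 2 genes within a library does not depend on scaling, so each member was also set against Pdgfrb. Tagln had 6.37, 7.18 and 4.87 reads per 100 Pdgfrb reads in mice 10, 11 and 12 of mVEGF-C+mAdu, against 13.5, 8.72 and 12.6 in mice 1, 2 and 3 of eGFP+mIgG. Rgs5 had 394, 315 and 288 reads per 100 Pdgfrb reads in mVEGF-C+mAdu, against 287, 254 and 251 in eGFP+mIgG. Both ratios were separate between the groups, with Tagln lower and Rgs5 higher in each treated mouse than in each control. For Rgs5 the gap, 288 in mouse 12 against 287 in mouse 1, was within counting error (4.42% for Pdgfrb in mouse 12). Mouse 11 had the lowest Pdgfrb of all libraries, at 16.3 CPM, which raises its ratios, and its Rgs5 CPM lay within the control range. The share of all genes with separate ratios to Pdgfrb was not computed. The exact two-sided permutation test gave p = 0.1 for each, the smallest that 3 against 3 mice allow, and 0.28 after adjustment over the 7 ratios. The ratios of Acta2, Myh11, Myl9, Mylk and Notch3 had exact p-values of 0.2, 0.3, 0.2, 0.2 and 0.9.

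**Figure D2:**
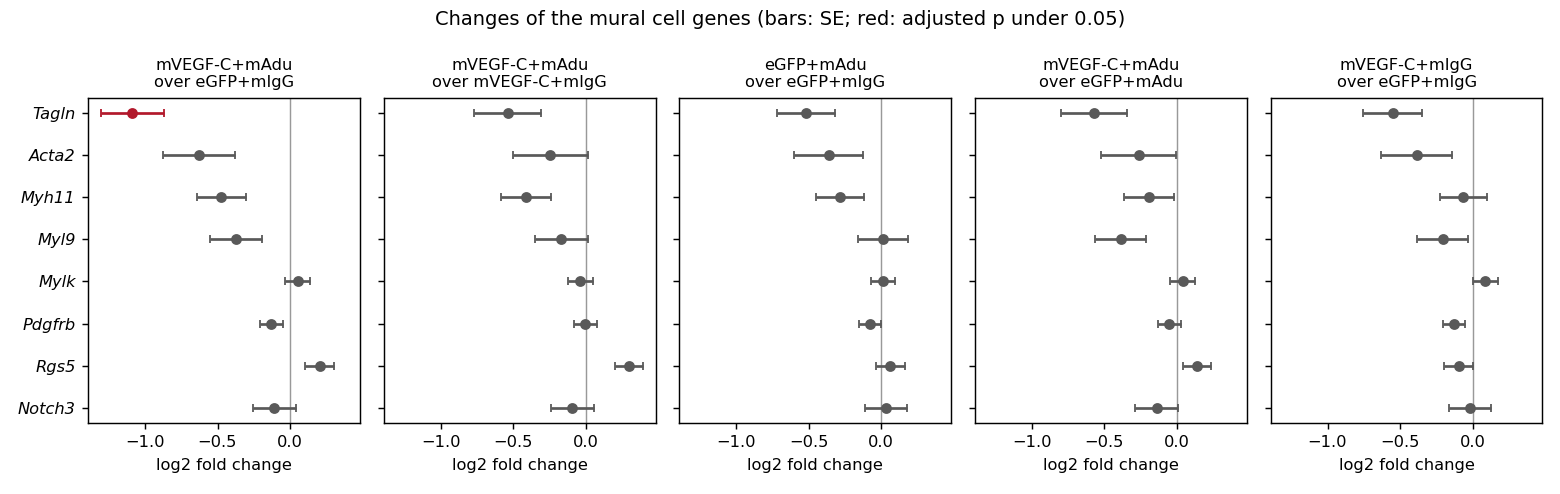
Log2 fold change of the 8 mural cell genes on the x axis in 5 comparisons, 1 per panel, with SE bars from edgeR. Tagln in mVEGF-C+mAdu over eGFP+mIgG, at -1.09, is the red point that passed; panels share groups, so their points are not independent.

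The antibody was compared within each vector; these comparisons share groups with the one above, so their values are set side by side only. Under mVEGF-C, Tagln had 1.19, 1.17 and 1.01 CPM with mAdu, against 1.87, 1.47 and 1.56 CPM in mice 7, 8 and 9 with mIgG, and the groups did not overlap. Myh11 was also separate, with 2.30, 1.98 and 2.33 CPM with mAdu against 3.18, 2.94 and 2.71 CPM with mIgG; 8.12% of all genes were separate as lower. The log2 changes were -0.54 (SE 0.232) for Tagln and -0.41 (SE 0.170) for Myh11, and neither passed, with an adjusted p of 0.345 and 0.315 by edgeR.

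Rgs5 had the only positive change of the 8 genes with mAdu under mVEGF-C, and the other 7 were negative. It had 73.6, 51.5 and 59.4 CPM in mVEGF-C+mAdu, against 51.9, 46.2 and 52.0 CPM in mVEGF-C+mIgG, and mouse 11 lay inside the mIgG range. The log2 change was 0.30 (SE 0.0977), with an adjusted p of 0.207 by edgeR. In this comparison 0 members passed where 0.208% of all genes did, and 3 had an unadjusted p under 0.05 where 12.7% of all genes did. DESeq2 and limma-voom also passed 0. In the 8 libraries without mice 3, 6, 9 and 12, 2 members (Rgs5 and Myh11) had an unadjusted p under 0.05 and all 8 kept their direction.

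With the control vector, Tagln had 2.01, 1.36 and 1.62 CPM in mice 4, 5 and 6 of eGFP+mAdu, against 2.72, 1.67 and 2.68 CPM in eGFP+mIgG. Mouse 4 was above mouse 2, so the groups overlapped. The log2 change was -0.52 (SE 0.201), with an adjusted p of 0.455 by edgeR. Acta2 had a log2 change of -0.36 and Myh11 one of -0.28, whereas Myl9, Mylk, Rgs5 and Notch3 lay between 0.01 and 0.06 and Pdgfrb at -0.08. No member passed where 0.0336% of all genes did, and 1, Tagln, had an unadjusted p under 0.05 where 9.21% of all genes did. DESeq2 passed 0 and limma-voom with quality weights passed Tagln. None had an unadjusted p under 0.05 in the 8 libraries without mice 3, 6, 9 and 12.

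The vector was compared within each antibody in the same way. With mAdu, Tagln had 1.19, 1.17 and 1.01 CPM under mVEGF-C against 2.01, 1.36 and 1.62 CPM under eGFP, without overlap. Myl9 had 4.34, 3.40 and 5.15 CPM under mVEGF-C against 6.37, 5.23 and 5.23 CPM under eGFP, also without overlap, as 10.2% of all genes were separate as lower. Their log2 changes were -0.57 (SE 0.229) and -0.39 (SE 0.178), with an adjusted p of 0.271 and 0.337 by edgeR. In this comparison 0 members passed where 0.0470% of all genes did, and 2 (Tagln and Myl9) had an unadjusted p under 0.05 where 14.3% of all genes did. DESeq2 and limma-voom also passed 0, and Myl9 alone had an unadjusted p under 0.05 in the 8 libraries without mice 3, 6, 9 and 12.

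With control immunoglobulin, Tagln had 1.87, 1.47 and 1.56 CPM in mVEGF-C+mIgG against 2.72, 1.67 and 2.68 CPM in eGFP+mIgG, and mouse 7 lay above mouse 2. Acta2 was uneven in both groups, at 5.54, 2.66 and 4.19 CPM in mVEGF-C+mIgG against 6.17, 3.81 and 5.99 CPM in eGFP+mIgG. Their log2 changes were -0.55 (SE 0.203) and -0.39 (SE 0.243), with an adjusted p of 0.570 and 0.718 by edgeR. No member passed where 0.0403% of all genes did, and Tagln had an unadjusted p under 0.05 where 7.91% of all genes did. DESeq2 passed 0 and limma-voom with quality weights passed Tagln. None had an unadjusted p under 0.05 in the 8 libraries without mice 3, 6, 9 and 12.

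Averaged over vectors, the log2 change of mAdu over mIgG was -0.53 (SE 0.153) for Tagln, -0.35 (SE 0.118) for Myh11 and 0.18 (SE 0.0690) for Rgs5. The adjusted p was 0.123, 0.170 and 0.219 by edgeR, so 0 members passed where 0.571% of all genes did; these 3 had an unadjusted p under 0.05 where 15.5% of all genes did. Averaged over antibodies, that of mVEGF-C over eGFP was -0.56 (SE 0.153) for Tagln and -0.30 (SE 0.125) for Myl9, with an adjusted p of 0.112 and 0.262 by edgeR. Again 0 passed where 0.390% of all genes did, and these 2 had an unadjusted p under 0.05 where 16.0% of all genes did. DESeq2 passed 0 in both, whereas limma-voom with quality weights passed Tagln for the antibody, and Tagln and Acta2 for the vector. In the 8 libraries without mice 3, 6, 9 and 12, 1 member had an unadjusted p under 0.05 in each, Myh11 for the antibody and Myl9 for the vector.

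The interaction asks whether the antibody acted differently under the 2 vectors. For Tagln the interaction was -0.02 on the log2 scale with an SE of 0.299. A difference of up to about 2 times that SE, in either direction, could not have been told from 0 even before adjustment. Rgs5 had the largest estimate, 0.24 (SE 0.138). No member passed by edgeR where 0.0134% of all genes did, and 0 had an unadjusted p under 0.05 where 6.82% of all genes did. DESeq2 and limma-voom passed 0. In the 8 libraries without mice 3, 6, 9 and 12, 0 had an unadjusted p under 0.05 and 7 of 8 kept their direction.

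**Figure D3:**
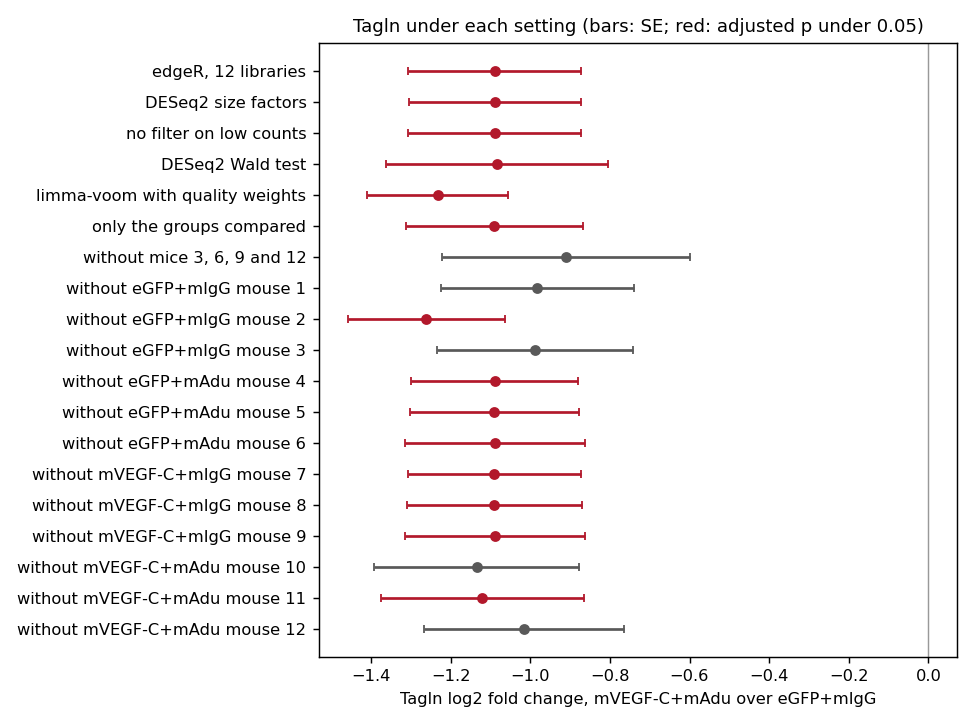
Log2 fold change of Tagln in mVEGF-C+mAdu over eGFP+mIgG on the x axis, with SE bars, under each setting listed on the y axis. The estimate stays between -1.26 and -0.91, and 5 settings (grey) do not pass: without mice 3, 6, 9 and 12, and without mouse 1, 3, 10 or 12.

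The 8 genes did not vary as a single block across the 12 libraries. Of their 28 pairs, Tagln and Acta2 had the closest relation in log2 CPM (Pearson's r = 0.81, permutation p = 0.00144, adjusted over the pairs 0.0403; Spearman's rho = 0.80, permutation p = 0.00272, adjusted 0.0647). For this pair r was 0.65 without the 2 libraries farthest from the median of Tagln, 0.77 in the 8 libraries without mice 3, 6, 9 and 12, and 0.82 for deviations from the group means. The next pairs were Myl9 and Pdgfrb and Acta2 and Myl9, each with r = 0.71 (adjusted permutation p = 0.0814), and Tagln and Myh11 with r = 0.69 (adjusted permutation p = 0.0878), and none of these passed. Libraries of 1 group share their treatment, and whether mice 3, 6, 9 and 12 are independent of the others is not known.

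Rgs5 and Notch3 had the lowest correlations with the rest when differences between groups were left in. For deviations from the group means, Rgs5 had r = 0.79 with Mylk, 0.57 with Acta2 and 0.53 with Myl9. It had 0.41 with both Myh11 and Pdgfrb, 0.29 with Tagln and -0.09 with Notch3. Notch3 ran from -0.62 with Tagln to 0.21 with Pdgfrb by the same measure. Against the mean of the other 7 genes, with group differences left in, r was 0.0057 for Rgs5 and -0.08 for Notch3. It was 0.84 for Acta2, 0.77 for Myl9 and 0.70 for both Tagln and Pdgfrb (descriptions over 12 libraries). The genes outside the list with the highest r to the mean level of the 8 were Orai3, Zfr2, Nptxr, ENSMUSG00000103515, Cpt1c, 1700088E04Rik, Zfp512b and Unk, with r from 0.94 to 0.92. In all, 139 of 14873 other genes (0.935%) reached an r of 0.8.

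Other genes of mural cells were counted in the combined comparison, where 2.18% of all genes passed, 20.4% had an unadjusted p under 0.05 and 51.1% had a negative change. Of 25 further contractile and smooth muscle genes, 18 had a row; 14 changes were negative, the median was -0.10, 4 had an unadjusted p under 0.05, and 1 passed as lower. That gene was Flna, the actin cross-linker filamin A, which many cell types express (log2 -0.39, SE 0.0865, adjusted p = 0.0350 by edgeR). Smtn, which encodes smoothelin of contractile smooth muscle, had a log2 change of -0.24 (SE 0.158) and Cald1, the actin-binding caldesmon, one of -0.11 (SE 0.0916); neither passed.

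Of 20 further pericyte markers, 17 had a row; 10 changes were negative, the median was -0.18, and 0 passed, with 4 at an unadjusted p under 0.05, shares near those of all genes. Vtn, the vitronectin gene of brain pericytes, had a log2 change of -0.20 (SE 0.0852), and Cspg4, the NG2 proteoglycan shared with oligodendrocyte precursors, one of -0.18 (SE 0.0960). Kcnj8 and Abcc9, the subunits of the pericyte potassium channel, had changes of 0.09 (SE 0.169) and 0.10 (SE 0.123). None of these 4 genes passed by edgeR.

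Among regulators of smooth muscle transcription, Klf4, a repressor of contractile genes, was the 1 of 8 measured that passed. It rose by 0.62 on the log2 scale (SE 0.147, adjusted p = 0.0402 by edgeR), and it is also expressed in endothelial and immune cells. Srf, which encodes the serum response factor, had a change of 0.03 (SE 0.0458). Its coactivator gene Myocd had no row and was not analysed here.

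Of 16 measured vasoactive receptors and effectors, Ednrb, the endothelin B receptor, rose in the combined comparison (log2 0.27, SE 0.0510, adjusted p = 0.0181 by edgeR). Averaged over vectors it rose with mAdu as well (0.17, SE 0.0360, adjusted p = 0.0490 by the same test). Astrocytes express Ednrb too. The 9 genes of platelet-derived growth factor and angiopoietin signalling, 12 of transforming growth factor beta signalling and 16 of Notch signalling had 0 that passed in the combined comparison, with medians of -0.07, -0.03 and -0.01. By unadjusted p under 0.05 there were 1, 0 and 2. Pdgfb, the ligand of Pdgfrb, had a change of -0.13 (SE 0.0655) and Jag1, a ligand of Notch3, one of -0.02 (SE 0.0838).

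The calls of Flna, Klf4 and Ednrb in the combined comparison were lost in the 8 libraries without mice 3, 6, 9 and 12, with an adjusted p of 0.560 for each by edgeR. Their log2 changes there were -0.38, 0.76 and 0.32, close to or larger in size than in all 12 libraries. The calls held in 6, 4 and 9 of the 12 fits that left out a single library. The call of Ednrb averaged over vectors held in 3 of 12 and was lost in the 8 libraries (adjusted p = 0.835). In the comparisons other than these, no gene of the mural and pathway lists outside the 8 members passed.

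Markers of other cells near vessels and ventricles had negative changes in the combined comparison too. All 18 markers of meningeal and perivascular fibroblasts had negative changes, with a median log2 change of -0.39, 1 that passed (Lama1, -0.54) and 9 at an unadjusted p under 0.05. Their summed level was 237 to 247 CPM in mVEGF-C+mAdu against 269 to 299 CPM in eGFP+mIgG; it was 211 to 272 CPM in mVEGF-C+mIgG and 264 to 331 CPM in eGFP+mAdu. Pdgfra, which marks fibroblasts and oligodendrocyte precursors, is among these markers, and fibroblasts also express Pdgfrb. The 3 measured border-associated macrophage markers had a median of -0.64, and none passed. Their summed level was 6.39 to 7.26 CPM in mVEGF-C+mAdu against 9.58 to 10.9 CPM in eGFP+mIgG. It was as low in mVEGF-C+mIgG, at 6.03 to 6.67 CPM, and ran from 5.12 to 10.2 CPM in eGFP+mAdu.

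Markers of ventricle-lining cells also had mostly negative changes in the combined comparison. All 10 ependymal markers were negative (median -0.57, with Tekt1 and Foxj1 passing as lower), at 29.2 to 43.6 CPM in mVEGF-C+mAdu against 44.7 to 58.2 CPM in eGFP+mIgG. Of 10 choroid plexus markers 9 were negative (median -0.50, with Ttr passing as lower), at 49.6 to 50.5 CPM in mVEGF-C+mAdu against 66.3 to 112 CPM in eGFP+mIgG. Ttr alone had means of 16.6 and 51.6 CPM in these groups, so the difference in the sums is mostly that of Ttr. In mVEGF-C+mIgG and eGFP+mAdu the sums were 47.1 to 50.2 and 46.2 to 52.8 CPM for ependymal markers, and 57.8 to 65.2 and 82.1 to 97.9 CPM for choroid plexus markers. The calls of Lama1, Tekt1, Foxj1 and Ttr were lost in the 8 libraries (adjusted p = 0.560 for each by edgeR), where their log2 changes were -0.45, -0.70, -0.48 and -1.65, against -0.54, -0.68, -0.55 and -1.62 in all 12. Ttr also passed as lower in mVEGF-C+mAdu over eGFP+mAdu (log2 -1.76, adjusted p = 0.0176 by edgeR). Averaged over antibodies it passed as lower with mVEGF-C (log2 -1.39, adjusted p = 0.00319 by edgeR). Tekt1 passed as lower with mAdu averaged over vectors (log2 -0.43, adjusted p = 0.0383 by edgeR). In the 8 libraries these calls had an adjusted p of 0.876, 0.816 and 0.835 by the same test. The part of these other cells near vessels and ventricles in the lower Tagln was not tested.

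Endothelial genes, from the cells that mural cells wrap, were split in direction. Over 20 markers 12 changes were negative, with a median of -0.03, and the summed level was 462 to 505 CPM in mVEGF-C+mAdu and 474 to 494 CPM in eGFP+mIgG. Vwf passed as lower (log2 -0.71, SE 0.0948) and Slco1c1, a thyroid hormone transporter of the barrier, as higher (0.32, SE 0.0674), with an adjusted p of 0.00343 and 0.0300 by edgeR. In the 8 libraries without mice 3, 6, 9 and 12 neither passed (adjusted p = 0.251 and 0.560 by the same test), with log2 changes of -0.80 and 0.33. With a single library left out, Vwf passed in 12 of 12 fits and Slco1c1 in 7. Vwf also passed as lower in eGFP+mAdu over eGFP+mIgG (log2 -0.75, adjusted p = 0.00257 by edgeR). Averaged over vectors it passed as lower with mAdu (log2 -0.46, adjusted p = 0.00806 by edgeR). In the 8 libraries the adjusted p of these calls was 0.424 and 0.727 by the same test. Of 8 astrocyte and 8 microglial markers 1 each passed as lower, Aldh1l1 (log2 -0.21) and C1qa (-0.43), with list medians of -0.01 and -0.13; both calls were lost in the 8 libraries, with log2 changes of -0.19 and -0.44. C1qa also passed as lower in mVEGF-C+mAdu over mVEGF-C+mIgG (log2 -0.55, adjusted p = 0.0429 by edgeR). Dsp, of the hippocampal neuron markers, passed as lower with mAdu averaged over vectors (log2 -0.45, adjusted p = 0.0248 by edgeR). In the 8 libraries their adjusted p was 0.997 and 0.835 by the same test. Blood cell markers were measured by Hbb-bs and S100a9 only. They summed to 1.81 to 2.37 CPM in mVEGF-C+mAdu and 1.09 to 1.86 CPM in eGFP+mIgG. No defining marker named here (Cldn5, Pecam1, Dcn, Col1a1, Mrc1, Ttr and Hbb-bs) was at 0 in any library.

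**Figure D4:**
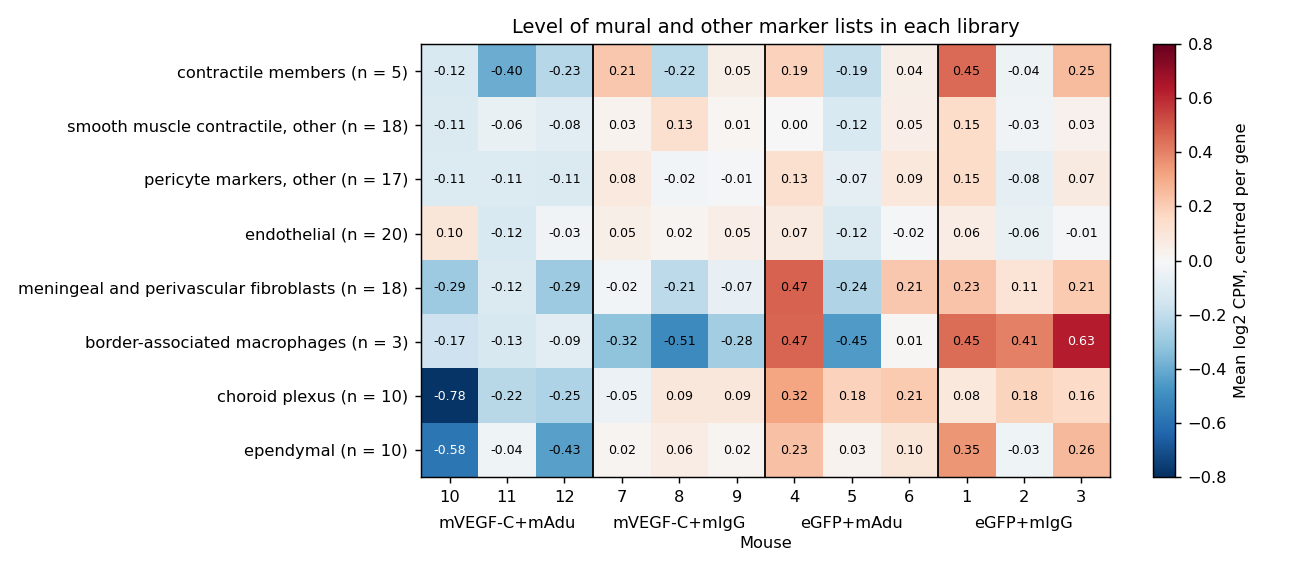
Mean log2 CPM of marker lists, after subtracting every gene's average across libraries, with libraries on the x axis by group and lists on the y axis. The 5 contractile members are lowest in mouse 11 (-0.40) and highest in mouse 1 (0.45). Every list shown except the endothelial one is below 0 in all 3 mice of mVEGF-C+mAdu. The fibroblast and border-associated macrophage lists are below 0 in all 3 mice of mVEGF-C+mIgG too.

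Depth ran in parallel with the contractile genes in part. The centred level of the 5 contractile genes was highest in mice 1 and 3, at 0.45 and 0.25, and these libraries were also the deepest, with 29295266 and 29104352 reads. Mouse 2 of the same group had the fewest reads, 23213612, and a level of -0.04. The mVEGF-C+mAdu libraries held 26111430, 24270575 and 24593682 reads in mice 10, 11 and 12, with levels of -0.12, -0.40 and -0.23. The part of depth in these levels was not tested.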

How the data were processed

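The authors' deposited table holds raw read counts per Ensembl gene for each of the 12 libraries, without normalization. Per the labels, RNA was extracted with the PicoPure kit and amplified linearly. FastQC, Trim Galore, STAR, Subread, featureCounts, edgeR and mm10 are named in the submitters' processing notes; the sources used here do not give their versions, the strand setting or the handling of reads from near-identical genes. The lowest total of a gene was 147 reads. GENCODE M21 (GRCm38) named 14791 identifiers and left 90 without a symbol; promoters came from RefSeq.

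The models used edgeR 4.0.16 under R 4.3.3: TMM scaling, filterByExpr (0 genes removed), 1 mean per group over all 12 libraries, two-sided quasi-likelihood tests of 8 contrasts, Benjamini-Hochberg adjustment over all 14881 genes and a threshold of 0.05. The fit was tested on simulated data. The common biological coefficient of variation was 5.16%. CPM use the TMM-scaled total, log2 CPM a prior count of 2, and the SE is the log2 change divided by the root of the F statistic. P-values set a group difference against the spread between these libraries, which is the spread between mice only if all 12 are separate. Counting errors cover reads only. Alternatives were DESeq2 1.42.0 (size factors, Wald test), limma-voom (limma 3.58.1) with quality weights, no filter, only the groups compared, no mice 3, 6, 9 and 12, and each library left out. The members and gene lists were chosen with earlier results of these data known. The naming rule took all members, up to 4 passing genes of each list per contrast, and the 8 genes most like the members' mean. Smtn, Cald1, Vtn, Cspg4, Kcnj8, Abcc9, Srf, Pdgfb, Jag1, Pcsk7, Myl12a, Myl12b and the actins lie outside it, chosen after their values were seen.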

Additional observations from a re-analysis of the deposited data

How the results depend on the processing

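Among the 8 mural genes, 1 passed in mVEGF-C+mAdu over eGFP+mIgG and 0 in each other comparison by edgeR, and these counts held with DESeq2 size factors, no filter and the DESeq2 Wald test. They also held with only the groups compared, which was run for the 5 comparisons of pairs of groups and not for the interaction or the averaged effects. With limma-voom and quality weights they were 1 for eGFP+mAdu over eGFP+mIgG, 1 for mVEGF-C+mIgG over eGFP+mIgG, 2 for mVEGF-C+mAdu over eGFP+mIgG, 1 for the averaged antibody effect and 2 for the averaged vector effect. Without mice 3, 6, 9 and 12 the count was 0 for mVEGF-C+mAdu over eGFP+mIgG. With 1 library left out it ran from 0 to 1 there and from 0 to 1 for the averaged antibody effect, where Tagln passed without mouse 2. No paired analysis was possible because the groups share no replicate numbers. The cause of these shifts was not tested.

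Over all genes, 324 passed in the combined comparison, against 2660 by limma-voom with quality weights, 610 with only the groups compared, 2 without mice 3, 6, 9 and 12, and 12 to 594 with 1 library left out. For eGFP+mAdu over eGFP+mIgG, mVEGF-C+mAdu over mVEGF-C+mIgG, mVEGF-C+mIgG over eGFP+mIgG and mVEGF-C+mAdu over eGFP+mAdu, the counts were 5, 31, 6 and 7, against 507, 1234, 937 and 970 by limma-voom and 40, 126, 20 and 104 by the DESeq2 Wald test. With only the groups compared they were 7, 6, 2 and 62, and without mice 3, 6, 9 and 12 they were 2, 0, 2 and 0. With 1 library left out they ran from 4 to 35, 2 to 138, 1 to 52 and 0 to 110. For the interaction, the averaged antibody and the averaged vector effect the counts were 2, 85 and 58, against 220, 1681 and 1789 by limma-voom, 8, 217 and 148 by DESeq2, 0, 1 and 0 without mice 3, 6, 9 and 12, and 0 to 36, 9 to 172 and 4 to 253 with 1 library left out.

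None of the changes that reversed had passed. By limma-voom, Mylk was at -0.031 in eGFP+mAdu over eGFP+mIgG, Pdgfrb at 0.088 in mVEGF-C+mAdu over mVEGF-C+mIgG and at 0.031 in mVEGF-C+mAdu over eGFP+mAdu, Notch3 at 0.048 in mVEGF-C+mIgG over eGFP+mIgG, and Tagln at 0.074 in the interaction. Without mice 3, 6, 9 and 12, Pdgfrb was at -0.10 in the interaction and Mylk at 0.022 in the averaged antibody effect. With 1 library left out, the log2 changes that crossed 0 had these ranges. In eGFP+mAdu over eGFP+mIgG they were -0.079 to 0.12 (Notch3), -0.091 to 0.14 (Myl9) and -0.049 to 0.079 (Mylk). In mVEGF-C+mAdu over mVEGF-C+mIgG they were -0.48 to 0.020 (Acta2), -0.084 to 0.082 (Pdgfrb), -0.12 to 0.041 (Mylk) and -0.21 to 0.008 (Notch3). In mVEGF-C+mIgG over eGFP+mIgG they were -0.18 to 0.14 (Myh11) and -0.13 to 0.086 (Notch3). In mVEGF-C+mAdu over eGFP+mAdu they were -0.041 to 0.12 (Mylk), -0.010 to 0.25 (Rgs5) and -0.13 to 0.032 (Pdgfrb), and in mVEGF-C+mAdu over eGFP+mIgG -0.029 to 0.13 (Mylk). In the interaction they were -0.15 to 0.15 (Tagln), -0.13 to 0.029 (Mylk), -0.11 to 0.38 (Acta2) and -0.008 to 0.16 (Pdgfrb). In the averaged effects they were -0.052 to 0.027 (Mylk), -0.090 to 0.019 (Notch3) and -0.080 to 0.0031 (Pdgfrb) for the antibody and -0.053 to 0.079 (Rgs5) for the vector. Depth limits Tagln most among the 8 genes, with 25 to 78 reads per library.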
